A study of Mus musculus with 4 samples.

Results

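The 3 mouse Tribbles genes (Trib1, Trib2 and Trib3) and Nupr1 were taken by name and followed through the ATF4 peak lists of a heart study. They are 4 of the 21900 protein-coding gene models of the RefSeq table used. In an ATF4 pull-down, chromatin was recovered on streptavidin beads from ventricles of mice aged 4 weeks and sequenced. The labels name 2 ATF4 pull-down samples, called replicate 1 and replicate 2 below, and 2 input samples of sheared chromatin without pull-down, whose values are not analysed here. For the pull-down samples the antibody field reads AAV without explanation, and how the recovered ATF4 came to be in the tissue is not given in the sources used here. Strain, sex, genotype and whether the replicates came from separate animals are not given in the sources used here, so the SDs measure only the spread between these samples. Replicate 1 came with 78746 peaks and replicate 2 with 88812, while a list for the series as a whole has 41639, and sequencing depth is unknown. Fold below means the authors' fold enrichment of a peak. For the replicates it was read from the deposited −log10 values by way of peaks with the coordinates of a series-wide peak. Among those peaks a given −log10 value nearly always had the same fold, in even steps, so no background particular to each site was seen. The folds are therefore not shown to be corrected for the input or a local background. Whether the input entered them in another way was not tested. The series-wide list starts at 7.5 fold, so every replicate fold below that is an extrapolation in even steps and not a fold the authors gave. A peak marks a region of recovered chromatin and does not by itself show ATF4 binding.

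ATF4 is the transcription factor made when stress kinases phosphorylate the initiation factor eIF2 and general translation slows. It binds as a dimer, often with a C/EBP partner, at composite elements made of a C/EBP and an ATF part. Tribbles proteins are pseudokinases: they keep the kinase fold but act mainly as scaffolds, and Trib1 and Trib2 bring C/EBP proteins to the ubiquitin ligase Cop1. Trib3 is a known ATF4 target whose protein binds ATF4 and the kinase Akt and dampens the response. Nupr1, also called p8, encodes a small unfolded chromatin protein that is induced by many stresses and is also a known ATF4 target.

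The promoter sequences are shown for the starts that lay under a peak, because the motifs and the summits are read against them. RefSeq promoter windows (GRCm38.p6, the assembly of mm10) run from 250 bases before to 50 bases after a start site and are written 5′ to 3′ in the direction of the gene. Capitals mark the core of the composite element, TGATGNAA, or its variant TGNTGCAA, on either strand. The variant was added after the sequence of Trib3 had been seen. The windows lie at chr2:152344011-152344310 (Trib3), chr7:126625421-126625720 (Nupr1) and chr12:15816736-15817035 (Trib2), all on the minus strand. The RefSeq promoter windows used here include none for Trib1, so its promoter is not shown and was not searched for motifs.
Trib3: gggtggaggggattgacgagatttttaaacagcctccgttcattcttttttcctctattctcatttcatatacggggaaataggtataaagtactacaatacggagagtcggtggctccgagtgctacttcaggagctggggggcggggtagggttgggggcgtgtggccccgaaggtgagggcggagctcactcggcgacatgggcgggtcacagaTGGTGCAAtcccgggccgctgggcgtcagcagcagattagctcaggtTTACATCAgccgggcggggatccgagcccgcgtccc
Nupr1: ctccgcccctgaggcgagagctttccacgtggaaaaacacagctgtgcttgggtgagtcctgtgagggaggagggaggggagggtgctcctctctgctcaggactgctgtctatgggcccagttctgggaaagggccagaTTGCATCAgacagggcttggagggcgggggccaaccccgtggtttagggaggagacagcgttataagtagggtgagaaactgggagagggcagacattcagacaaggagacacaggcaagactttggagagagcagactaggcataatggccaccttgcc
Trib2: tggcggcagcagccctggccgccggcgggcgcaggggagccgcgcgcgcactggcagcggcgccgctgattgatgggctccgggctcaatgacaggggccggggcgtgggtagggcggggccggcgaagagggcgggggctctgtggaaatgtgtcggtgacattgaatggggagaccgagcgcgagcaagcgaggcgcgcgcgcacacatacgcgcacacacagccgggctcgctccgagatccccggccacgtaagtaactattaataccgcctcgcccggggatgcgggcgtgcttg

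The Trib3 window held TGATGTAA on the strand opposite to the gene, 14 to 21 bases after the start site, and TGGTGCAA on the strand of the gene, 33 to 26 bases before it. The Nupr1 window held TGATGCAA on the opposite strand, 110 to 103 bases before the start site, and these letters match the core and the variant at once. The Trib2 window held neither. None of the 3 windows held the cyclic AMP response element TGACGTCA, the related form TGACGNAA or the AP-1 element TGANTCA, searched on both strands in these windows only. Of all 32851 promoter windows, 3.97% held the core, 3.22% the variant, 1.79% TGACGTCA, 1.59% TGACGNAA and 7.81% TGANTCA. Among the 7686 windows touched by a series-wide peak (23.4% of all windows) 2.42% held the core, against 4.44% of the windows without one. Among the 1189 windows touched by one of the 20% of peaks with the highest fold, which include those of Trib3 and Nupr1, the share with the core was 4.12%. The variant was in 2.41% of touched windows and 3.47% of the others, and TGANTCA in 4.79% and 8.73%. The corresponding shares were 3.89% and 1.15% for TGACGTCA, and 3.72% and 0.934% for TGACGNAA. Series-wide peaks touched the promoter windows of Trib2, Trib3 and Nupr1 and covered all 300 bases of each.

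At Trib3 (chromosome 2, 152337425 to 152344060, 6636 bp, mm10) the strongest peak lay on the start site. The fold was 50 in replicate 1 and 40.3 in replicate 2, a mean of 45.2 ± 6.83 (SD, n = 2). The peak ran from 152343796 to 152344367 in replicate 1 and from 152343380 to 152344759 in replicate 2. The summits lay 9 bp and 1 bp before the start site in replicates 1 and 2, between the 2 motif matches. The core match was 26.5 bp and 18.5 bp from these summits, and the variant 20.5 bp and 28.5 bp. The deposited −log10 values were 154 and 127. At or above the fold of Trib3 stood 0.499% of all replicate 1 peaks and 1.2% of all replicate 2 peaks. The series-wide peak (152343492 to 152344367) joined the start site peak of replicate 1 with a weaker one of 9.5 fold, and its deposited summit lay 385 bp inside the gene, away from the summits of both replicates.

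Trib3 also had the strongest peak found away from a gene end among the 4 genes. This peak lay 6.01 kb before the start site in replicate 1 and 6 kb before it in replicate 2, within the long noncoding RNA gene model Gm14164 (chromosome 2, 152349783 to 152350429 over both replicates). The fold was 27.0 in replicate 1 and 22.6 in replicate 2, a mean of 24.8 ± 3.11 (SD, n = 2), and 4.86% of replicate 1 peaks and 7.12% of replicate 2 peaks reached it. A pair of weaker peaks lay farther upstream in Gm14164. They had 8.93 ± 0.0956 fold at 16.2 kb and 11.3 ± 0.296 fold at 19.3 kb from the gene model (SD, n = 2 each). On the other side, a peak of 11.9 ± 1.31 fold (SD, n = 2) lay over an end of the neighbouring gene Rbck1, which encodes a subunit of a ubiquitin ligase complex, 4.6 kb from Trib3. Beyond the far end of Trib3, 300 bp from the model, both replicates had a weak peak of 6.0 fold and 7.09 fold that the series-wide list lacked.

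At Nupr1 (chromosome 7, 126623246 to 126625470, 2225 bp) the series-wide list held a single peak within 20 kb, at the start of the gene. The fold was 35 in replicate 1 and 34.1 in replicate 2, a mean of 34.6 ± 0.616 (SD, n = 2). The peak ran from 126625336 to 126625788 in replicate 1 and from 126625255 to 126626121 in replicate 2. The summits lay 105 bp and 113 bp before the start site, which is 1.5 bp and 6.5 bp from the middle of TGATGCAA. Over all promoter windows that held the core and the strongest summits of both replicates, 11 of 146 (7.53%) had both summits within 10 bp of it. The median distance in these windows was 33.5 bp in replicate 1 and 33 bp in replicate 2. The same count within 30 bp was 52 of 146 (35.6%), and the Trib3 and Nupr1 windows are both in it. These distances were compared after the data had been seen.

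Other signal around Nupr1 was weak. A further peak inside the gene had 5.5 fold in replicate 1 and 7.09 fold in replicate 2, and one 17.6 kb away towards Sgf29 had 6.5 fold and 7.54 fold. The other 4 sites within 20 kb had a peak in replicate 2 alone, of 5.32 to 6.65 fold. The start of Nupr1 also lies within the long noncoding RNA gene model Gm39087 (126621769 to 126635179), so the peak overlaps both models. Its summits lie 105 bp and 113 bp from the Nupr1 start site, and both ends of Gm39087 are farther away. To which of the 2 genes the peak belongs was not tested.

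**Figure D1:**
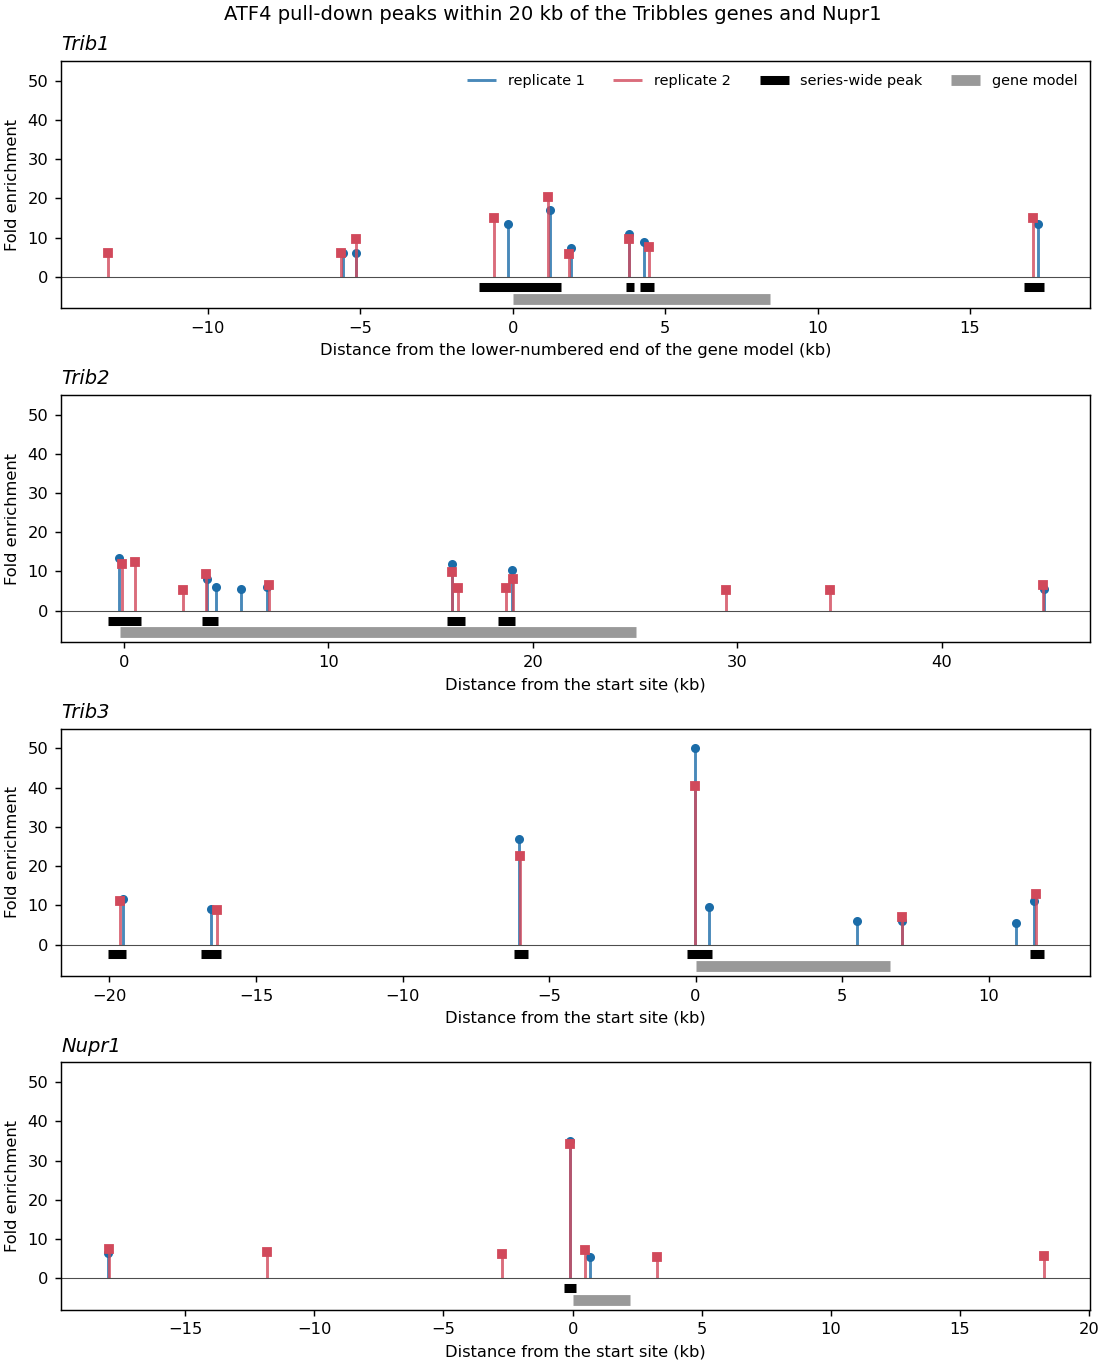
ATF4 pull-down peaks around each gene, with the distance of the summit on the x axis (kb, from the start site, or for Trib1 from the lower-numbered end of the gene model) and the fold enrichment on the y axis. Circles are replicate 1 and squares replicate 2, and the bars under each panel are series-wide peaks (black) and the gene model (grey). Trib3 and Nupr1 each have 1 high peak at the start (50 and 40.3 fold, and 35 and 34.1 fold), while no peak at Trib1 exceeds 20.4 fold and none at Trib2 exceeds 13.5 fold.

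At Trib1 (chromosome 15, 59648654 to 59657099, 8446 bp) the signal was broad and lower. A series-wide peak of 2713 bp (59647530 to 59650242) covered the lower-numbered end of the model. In each replicate it was made of 2 peaks. Replicate 1 had 13.5 fold 163 bp outside that end and 17.0 fold 1216 bp inside the gene. Replicate 2 had 15.1 fold 632 bp outside and 20.4 fold 1148 bp inside. The inner peak was the higher of the pair in both samples, and averaged 18.7 ± 2.4 fold (SD, n = 2). The series-wide summit lay 494 bp outside the end, away from the inner summits of both replicates. Series-wide peaks covered 27.4% of the Trib1 model, against 13.8% of Trib2, 8.57% of Trib3 and 6.07% of Nupr1.

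Trib1 had further peaks on both sides. Inside the gene, 2 series-wide peaks stood at 10.4 ± 0.883 fold and 8.27 ± 1.04 fold (SD, n = 2 each), 3.8 kb and 4.32 kb from the lower-numbered end by their series-wide summits. Beyond the other end, 8.34 kb from the model, a peak had 13.5 fold in replicate 1 and 15.1 fold in replicate 2, a mean of 14.3 ± 1.11 (SD, n = 2). In each replicate this was the same fold as that of the outer part of the peak at the lower-numbered end. The nearest other protein-coding gene, Nsmce2, was 63.7 kb away from it. A pair of weak peaks about 5 kb before the lower-numbered end had 6.1 ± 0.145 and 7.88 ± 2.65 fold (SD, n = 2 each) and were not in the series-wide list.

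At Trib2 (chromosome 12, 15791725 to 15816962, 25238 bp) many weak peaks were spread over the gene. The strongest site covered the start (15815905 to 15817575 over both replicates), with 13.5 fold in replicate 1 and 12.4 fold in replicate 2, a mean of 13 ± 0.77 (SD, n = 2). Replicate 1 had 1 peak there, with its summit 237 bp before the start site. Replicate 2 had 2 peaks, of 12 fold with a summit 82 bp before the start site and of 12.4 fold with a summit 556 bp after it. The strongest summits of the replicates were thus 793 bp apart, against 8 bp at both Trib3 and Nupr1. The 2 peaks of replicate 2 were close in fold (12.4 and 12), so which of them is the strongest is uncertain. The site also covers an end of the long noncoding RNA gene model Gm5432 (15816937 to 15888840), which overlaps the Trib2 model.

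Inside Trib2, series-wide peaks stood at 8.65 ± 0.925, 10.9 ± 1.59 and 9.24 ± 1.78 fold (SD, n = 2 each), at 4.03, 16.1 and 19 kb after the start site. The middle peak ended 11 bp from the microRNA gene Mir6387 (15800994 to 15801101). No Trib2 peak of the series-wide list was among the 50% with the highest fold. The farthest site counted for Trib2 lay 19.8 kb from the model, at 5.5 fold in replicate 1 and 6.65 fold in replicate 2.

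**Figure D2:**
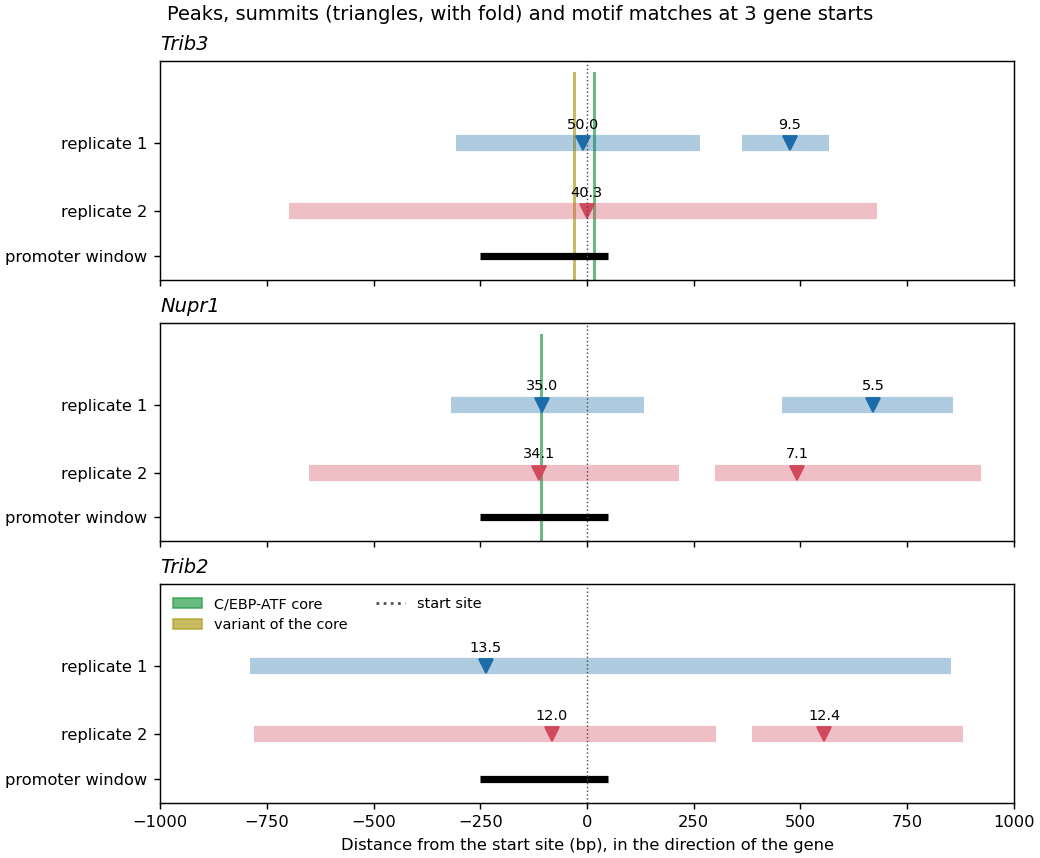
Peaks (bars) and summits (triangles, labelled with the fold) of each replicate within 1 kb of the start sites of Trib3, Nupr1 and Trib2, in bp along the gene, with the 300-base promoter window in black. Green bands mark the core of the composite element and the olive band its variant. The Nupr1 summits lie 1.5 bp (replicate 1) and 6.5 bp (replicate 2) from the middle of the match, and the replicate 2 summit is just outside it. The Trib3 summits fall between the 2 matches and Trib2 has none.

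All 4 genes had a peak within 1 kb of an end of the gene model in each of the 3 lists. Among all protein-coding genes the share was 34.9% in the series-wide list, 48.2% in replicate 1 and 50.2% in replicate 2. Within 20 kb of the model all 4 genes again had a peak in each list, where 68.2%, 78% and 79.2% of all genes did, so a peak at that distance was common. The number of series-wide peaks within 20 kb was 4 at Trib1, 4 at Trib2, 5 at Trib3 and 1 at Nupr1, beside a median of 1 over all genes, and 21.2%, 21.2%, 14% and 68.2% of genes had as many or more. Longer gene models have wider windows, and no adjustment was made for this.

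The 4 genes differed in the height of the gene-end peak. In both replicates the order was Trib3, Nupr1, Trib1, Trib2, and the replicate values of neighbours in that order did not overlap (40.3 to 50, 34.1 to 35, 17.0 to 20.4 and 12.4 to 13.5 fold). With 2 samples of 1 group no test of these differences was made. Over all genes with a gene-end peak, the median of the strongest peak was 10 fold in replicate 1 and 10.2 fold in replicate 2. Of the 9901 genes with a gene-end peak in both replicates, 1.07% had a mean fold at or above that of Trib3, 2.78% at or above Nupr1, 13.7% at or above Trib1 and 32.1% at or above Trib2. Replicate 1 over replicate 2 was 1.24 at Trib3, 1.03 at Nupr1, 0.834 at Trib1 and 1.09 at Trib2, beside a median of 0.994 and quartiles of 0.836 and 1.16 over these genes. Trib3 was therefore above the upper quartile and Trib1 just below the lower one.

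**Figure D3:**
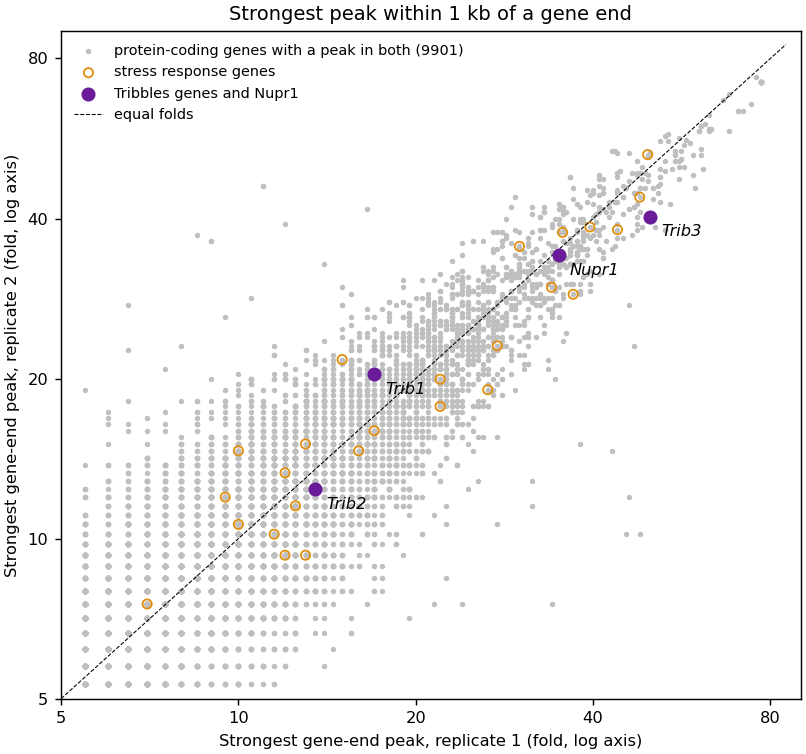
Strongest peak within 1 kb of a gene end in replicate 1 (x axis) and replicate 2 (y axis), as fold enrichment on log axes, for the 9901 protein-coding genes with a peak in both (grey). Orange circles are stress response genes and purple points the Tribbles genes and Nupr1, of which Trib3 (50 and 40.3) and Nupr1 (35 and 34.1) lie in the upper tail and Trib2 (13.5 and 12.4) in the bulk.

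The genes whose gene-end folds were nearest over the 2 samples were found by the distance of log2 folds. Nucb1 was nearest to Trib3, with 48.0 and 41.2 fold in replicates 1 and 2, followed by Zfp949 with 51.0 and 38.6 fold. For Nupr1 they were Zfp846, with 35 and 33.7 fold, and Sik1, which encodes a salt-inducible kinase, with 34.5 and 34.1 fold. Mtf2 and Zfp866 had the same folds as Trib1 in both replicates, and 8 genes, Ccdc163 and Ciao2b among them, had the same folds as Trib2. With 2 samples and folds in fixed steps, such likeness is coarse.

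The members were set beside other genes of the stress response. Of 27 listed genes, 25 had a series-wide gene-end peak, where 34.9% of all genes did, and their median was 21.7 fold, beside 13.3 fold over all genes with such a peak. This list, like the other lists and the members, was chosen with earlier results of these data known, and no test was made on it. By the mean of both replicates, Trib3 ranked 3, Nupr1 7, Trib1 15 and Trib2 20 of the 29 genes, members included, with a peak in both. Above Trib3 stood Chac1, which encodes a glutathione-degrading enzyme (51.1 ± 2.3 fold), and Herpud1, of protein degradation from the endoplasmic reticulum (45.9 ± 2.91 fold; SD, n = 2 each). Around Nupr1 stood Ddit3, the gene of the ATF4 partner CHOP, at 36.6 ± 1.54 fold and the asparagine synthetase gene Asns at 32.9 ± 5.79 fold (SD, n = 2 each). Atf4 itself had 18.4 ± 4.75 fold, close to Trib1, and Atf5 had 14.0 ± 1.46 fold, close to Trib2 (SD, n = 2 each). The cystine transporter gene Slc7a11 had no gene-end peak in any list, and the kinase gene Eif2ak2 had 5.76 fold in replicate 2 alone.

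**Figure D4:**
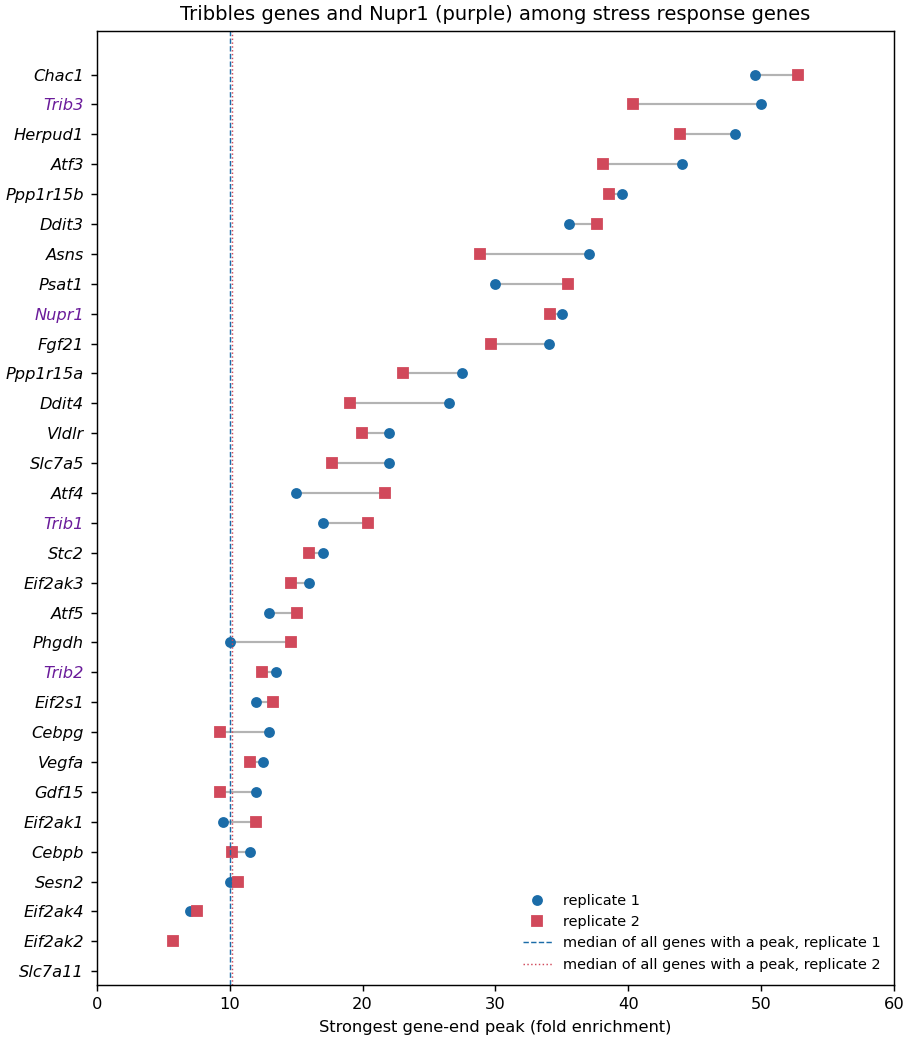
Strongest gene-end peak of the Tribbles genes and Nupr1 (purple names) and of 27 stress response genes, as fold enrichment in replicate 1 (circles) and replicate 2 (squares), ordered by the higher value. Dashed and dotted lines are the medians of all genes with a gene-end peak (10 and 10.2 fold), and all 4 members lie to the right of both lines.

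Of 15 listed genes whose proteins are known to work with Tribbles proteins, 10 had a series-wide gene-end peak (66.7%, beside 34.9% of all genes) and 13 had one in each replicate list, where 48.2% and 50.2% of all genes did. Cebpb, Ddit3 and Atf4 are among these 10 and were also counted in the stress response list. The highest was Stk40, which encodes a related pseudokinase that also binds Cop1, at 46.4 ± 3.36 fold (SD, n = 2), beside 45.2 ± 6.83 fold at Trib3. Cop1, the ubiquitin ligase that Tribbles proteins recruit, had 28.5 ± 2.89 fold and its complex partner Det1 had 12.9 ± 1.23 fold (SD, n = 2 each). Among the kinase genes, Map2k7 had 16.6 ± 0.91 fold and Map2k1 9.88 ± 0.176 fold (SD, n = 2 each). Akt1 (9.68 ± 4.49 fold) and Akt2 (8.32 ± 2.37 fold; SD, n = 2 each) had a gene-end peak in each replicate but not in the series-wide list. The C/EBP genes were modest, at 12.5 ± 3.59 fold for Cebpa and 10.8 ± 0.923 fold for Cebpb (SD, n = 2 each). Acacb, of fatty acid metabolism, had 17.9 ± 5.84 fold (SD, n = 2) and Acaca had no gene-end peak.

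Of 6 genes listed as relatives or partners of Nupr1, 3 had a series-wide gene-end peak: Ptma at 14.2 ± 2.54 fold, the acetyltransferase gene Ep300 at 12 ± 1.36 fold and the mitotic kinase gene Aurka at 11.7 ± 3.98 fold (SD, n = 2 each). The share over all genes was 34.9%. Each replicate list had a gene-end peak at 5 of the 6, beside 48.2% and 50.2% of all genes. Nupr1l, the gene most related to Nupr1, had 5.32 fold in replicate 2 alone, Msl1 had 7.5 fold in replicate 1 alone, and Relb had 7.5 fold in replicate 1 and 5.32 fold in replicate 2. As a check of the labelled tissue, 7 of 7 cardiomyocyte markers had a series-wide gene-end peak, against 1 of 5 endothelial, 1 of 5 fibroblast, 3 of 4 smooth muscle and pericyte, 1 of 4 immune and none of 4 neuronal markers, and 34.9% of all genes. In replicates 1 and 2 the counts were 7 and 7 of 7 cardiomyocyte, 3 and 3 of 5 endothelial, 3 and 5 of 5 fibroblast, 4 and 4 of 4 smooth muscle and pericyte, 1 and 1 of 4 immune and 1 and 1 of 4 neuronal markers, beside 48.2% and 50.2% of all genes. These are peaks and not expression levels.

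Over the 4 genes, the peaks of the 3 lists fell into 33 separate sites within 20 kb. Both replicates had a peak at 22 of them, replicate 1 alone at 3 and replicate 2 alone at 8, and 14 had a series-wide peak. No site with a peak in 1 replicate exceeded 6.0 fold in replicate 1 or 6.65 fold in replicate 2. By peaks, 25 of 28 in replicate 1 (89.3%) overlapped a peak of replicate 2, beside 81.2% of all replicate 1 peaks. In replicate 2, 26 of 34 (76.5%) overlapped a replicate 1 peak, beside 72.1% of all. The nearest series-wide peaks outside the 20 kb limit lay 21.5 kb from Trib1 (11 fold), 22.9 kb from Trib2 (11.1 fold), 54.6 kb from Trib3 (12.5 fold) and 39.5 kb from Nupr1 (11.1 fold).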

How the data were processed

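No role or version is stated for the Bowtie2, MACS2, deepTools and mm10 listed per the submitters' processing notes. Each replicate list holds positions, summits and the −log10 that the authors deposited for a peak's significance; whether it is of a p-value or of a q-value was not settled. The series-wide list gives the authors' deposited fold and a summit offset. Its starts count from 0 and those of the replicate lists from 1. Replicate folds were read from 17420 and 21063 peaks with the coordinates of a series-wide peak, where the usual fold of a −log10 value held in 100% and 99.9% of peaks. The 4 and 5 lowest values, all below 7.5 fold, were continued by steps of 0.5 and 0.443 fold, and 2 and 9 high values were interpolated. The folds of a replicate thus lie on an even ladder, nearly always with 1 fold for a −log10 value. Such a ladder goes with a background that is the same for all peaks of a list, and no difference between peaks was seen in it. Column mapping left 0 columns unmapped.

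Gene models came from RefSeq (GRCm38.p6), without exons. Overlap of at least 1 bp was required. Named genes were the 4 members, the fixed lists, neighbours of member peaks and the 2 genes nearest in fold to each. Members and lists were chosen with earlier results of these data known. Identity between the member proteins was planned and was not computed, since no protein sequences were used here. The value of 1 listed gene is not reported here. Other windows, stricter peaks, each replicate alone and scaled folds were tried. Overlap and fold reading were tested on simulated data. Python 3.11.15, NumPy 2.4.6, pandas 2.3.3 and Matplotlib 3.10.9 were used.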

Additional observations from a re-analysis of the deposited data

How the results depend on the processing

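No paired analysis was possible because the input samples have no values here and no test between groups was made. Of 69 values recomputed under alternatives, 43 stayed and 26 moved; a count moved when it changed by over 1.5 times, a fold when it changed by 1 SD or more, and a share when it left its exact binomial interval. All 4 genes kept a gene-end peak with windows of 500 bp and 5 kb (31.8% and 47.4% of all genes), with peaks placed by summit and in each replicate alone. With the 20% of peaks of highest fold, 2 of the 4 genes (Trib3 and Nupr1), 13 stress response genes, 5 partners of Tribbles proteins and 0 of Nupr1 had one, beside 5.66% of all genes. With the 50% of highest fold 3 of the 4 did, beside 16.7% of all genes, and their series-wide peaks within 20 kb numbered 5 in place of 14; 22 lay within 50 kb. Each replicate alone gave 28 to 34 peaks within 20 kb, and 5 partners of Nupr1 in either one. A reciprocal overlap of 50% lowered the shared peaks to 71.4% in replicate 1 and 58.8% in replicate 2. Scaling by each replicate's median moved the strongest folds by less than 1 SD. Their values in 1 replicate lie within 1 SD of a mean of 2 by construction, and the series-wide fold repeats the higher replicate, so neither shows stability. The lists hold no read counts, and no counting error of a fold was computed.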

Other observations

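At Trib3 and Trib1 the deposited series-wide summit lay away from the summits that both replicates shared, and this was followed over the whole list after the data had been seen. Among 2503 series-wide peaks that held 2 or more peaks of a replicate, 722 (28.8%) had a summit over 100 bp from the strongest summits of both replicates while these lay within 100 bp of each other. Among 38140 series-wide peaks that held 1 peak of each replicate the count was 452 (1.19%). At Trib3 the deposited distance from peak start to summit equals the mean of those of the 2 joined replicate 1 peaks. At Trib1 it equals, after rounding, the mean for the 2 joined replicate 2 peaks. At these genes it therefore need not mark a maximum of signal. Whether the same holds over the whole list, and the part of peak width, were not tested. The summits of the replicate lists were used for Trib3 and Nupr1.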
